A study of Mus musculus with 10 samples.

Results

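The ISG15 conjugation system comprised Isg15, Uba7, Ube2l6, Herc6 and Usp18, and was examined in mouse acute lymphoblastic leukaemia after allogeneic or syngeneic bone marrow transplantation. The gene system was chosen with earlier results of these arrays known. Its members are all probe sets on the Affymetrix array with the symbol of 1 of the 5 genes, whatever their values, which gave 10 of 45101 probe sets. Of these, 9 carry 1 gene symbol, and the only probe set for Isg15 also lists Gm9706, an Isg15-related pseudogene entry on chromosome 17, so its signal is given throughout as that of the shared Isg15/Gm9706 probe set. Both groups were leukaemia of C57BL/6 background that carried the human p210 bcr/abl fusion, lacked the Ink4a/Arf locus and expressed a GFP marker on which it was sorted from marrow. The allogeneic group was grown in C57BL/6 recipients given C3.SW marrow and spleen cells (5 animals) and the syngeneic group in C57BL/6 recipients given C57BL/6 marrow and spleen cells (5 animals), after total body irradiation and 5-fluorouracil in both. Cells were moved to newly transplanted recipients every 2 to 3 weeks and RNA was taken after 3 transplants. All 10 samples carry the name NSTY ALL in the labels. Whether animals of a group shared an earlier recipient was not stated, so p-values measure the spread between these 10 arrays. No age was stated for the animals.

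ISG15 is a small ubiquitin-like protein that is attached to other proteins after interferon stimulation. UBA7 activates it, UBE2L6 carries it, and HERC6 is the main ligase that transfers it to targets in the mouse, a role held by HERC5 in human cells. USP18 removes ISG15 from its targets, and it also sits at the type I interferon receptor chain IFNAR2, where it damps signalling. All these genes are known as interferon-stimulated genes, induced through interferon-stimulated response elements (ISREs) and related sites that bind interferon regulatory factors (IRFs).

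The promoters are shown as a description of the genes. Whether they bear on the group differences of the members was not tested. The RefSeq promoter table of build GRCm38.p6 held 4 of the 5 members, and Usp18 was not among them. The 250 bases before the annotated start were searched on both strands for the ISRE core (GAAA, any 2 bases, GAAA) and for the shorter IRF core AANNGAAA, which lies within every ISRE match. Capitals mark matches, the sequences run 5′ to 3′ on the strand of the gene, and Isg15 lies at chr4:156200819-156201068 (minus strand), Uba7 at chr9:107975317-107975566 (plus strand) and Ube2l6 at chr2:84798578-84798827 (plus strand).
Isg15: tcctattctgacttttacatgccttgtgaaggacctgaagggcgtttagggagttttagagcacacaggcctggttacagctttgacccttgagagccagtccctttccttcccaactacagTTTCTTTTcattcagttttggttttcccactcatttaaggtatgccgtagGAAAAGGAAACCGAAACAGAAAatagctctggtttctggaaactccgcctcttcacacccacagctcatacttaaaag
Uba7: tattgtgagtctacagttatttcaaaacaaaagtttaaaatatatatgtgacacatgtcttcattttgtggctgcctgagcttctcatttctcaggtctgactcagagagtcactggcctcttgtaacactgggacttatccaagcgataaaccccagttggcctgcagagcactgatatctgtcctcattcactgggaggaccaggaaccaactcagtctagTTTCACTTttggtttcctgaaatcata
Ube2l6: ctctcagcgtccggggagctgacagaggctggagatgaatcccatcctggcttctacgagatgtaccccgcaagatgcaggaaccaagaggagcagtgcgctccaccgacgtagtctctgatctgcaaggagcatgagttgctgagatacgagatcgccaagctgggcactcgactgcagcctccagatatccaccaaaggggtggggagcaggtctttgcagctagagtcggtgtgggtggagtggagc
The Isg15 window held 3 overlapping matches to the ISRE core in 1 unbroken stretch between 78 and 57 bases before the start, and a further IRF core on the opposite strand between 128 and 121 bases before it. Uba7 held 1 IRF core, between 27 and 20 bases before the start, and no ISRE core. Neither motif was in the windows of Ube2l6 or Herc6. Among all 32851 promoter windows of this length, 2.98% held the ISRE core and 21.3% the IRF core. A match is a description of the letters and no measure of binding. A missing match covers only these exact cores within these 250 bases.

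Values below are log2 intensities after quantile normalization of the 10 arrays, and a group difference is the allogeneic minus the syngeneic mean on that scale. The deposited arrays were not on a common distribution, since the lower quartile of intensity was 18.7 to 19.5 in allogeneic animals 1, 3 and 4 and 13.8 to 14.4 on the other 7 arrays. Results were therefore also computed without those 3 animals. The background limit of an array was the 95th percentile of its 27 bacterial control probe sets, at log2 levels of 4.50 to 5.32. Of the 10 member probe sets, 9 exceeded it on all 10 arrays. The labelled cell type was borne out by its markers: all 12 measured B-lymphoid progenitor genes exceeded background on at least 1 array and 11 did so on all 10, with a median level of 12.45 to 12.72 in allogeneic and 12.45 to 12.63 in syngeneic samples. The exception was Pax5, a B-lineage transcription factor, which was above background on 2 of 5 allogeneic and 4 of 5 syngeneic arrays.

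The modifier and its carrier enzyme passed the test over the whole array. By limma with Benjamini-Hochberg adjustment over 45037 probe sets, 2 of the 10 member probe sets were higher in leukaemia from allogeneic recipients (Ube2l6 and the shared Isg15/Gm9706 probe set), 0 were lower and 8 did not pass. Of all probe sets tested, 0.271% were called higher and 0.14% lower. Without adjustment, 4 of the 10 had a p under 0.05, against 16.9% of all probe sets. Differences were positive for 9 of the 10, with a median of 0.34, against a median of -0.014 over all probe sets. The 5 allogeneic values lay wholly above the 5 syngeneic ones for 3 of the 10, which was the case for 2.37% of all probe sets (4.74% in either direction, and 2.94% where 1 probe set stood for each gene).

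**Figure D1:**
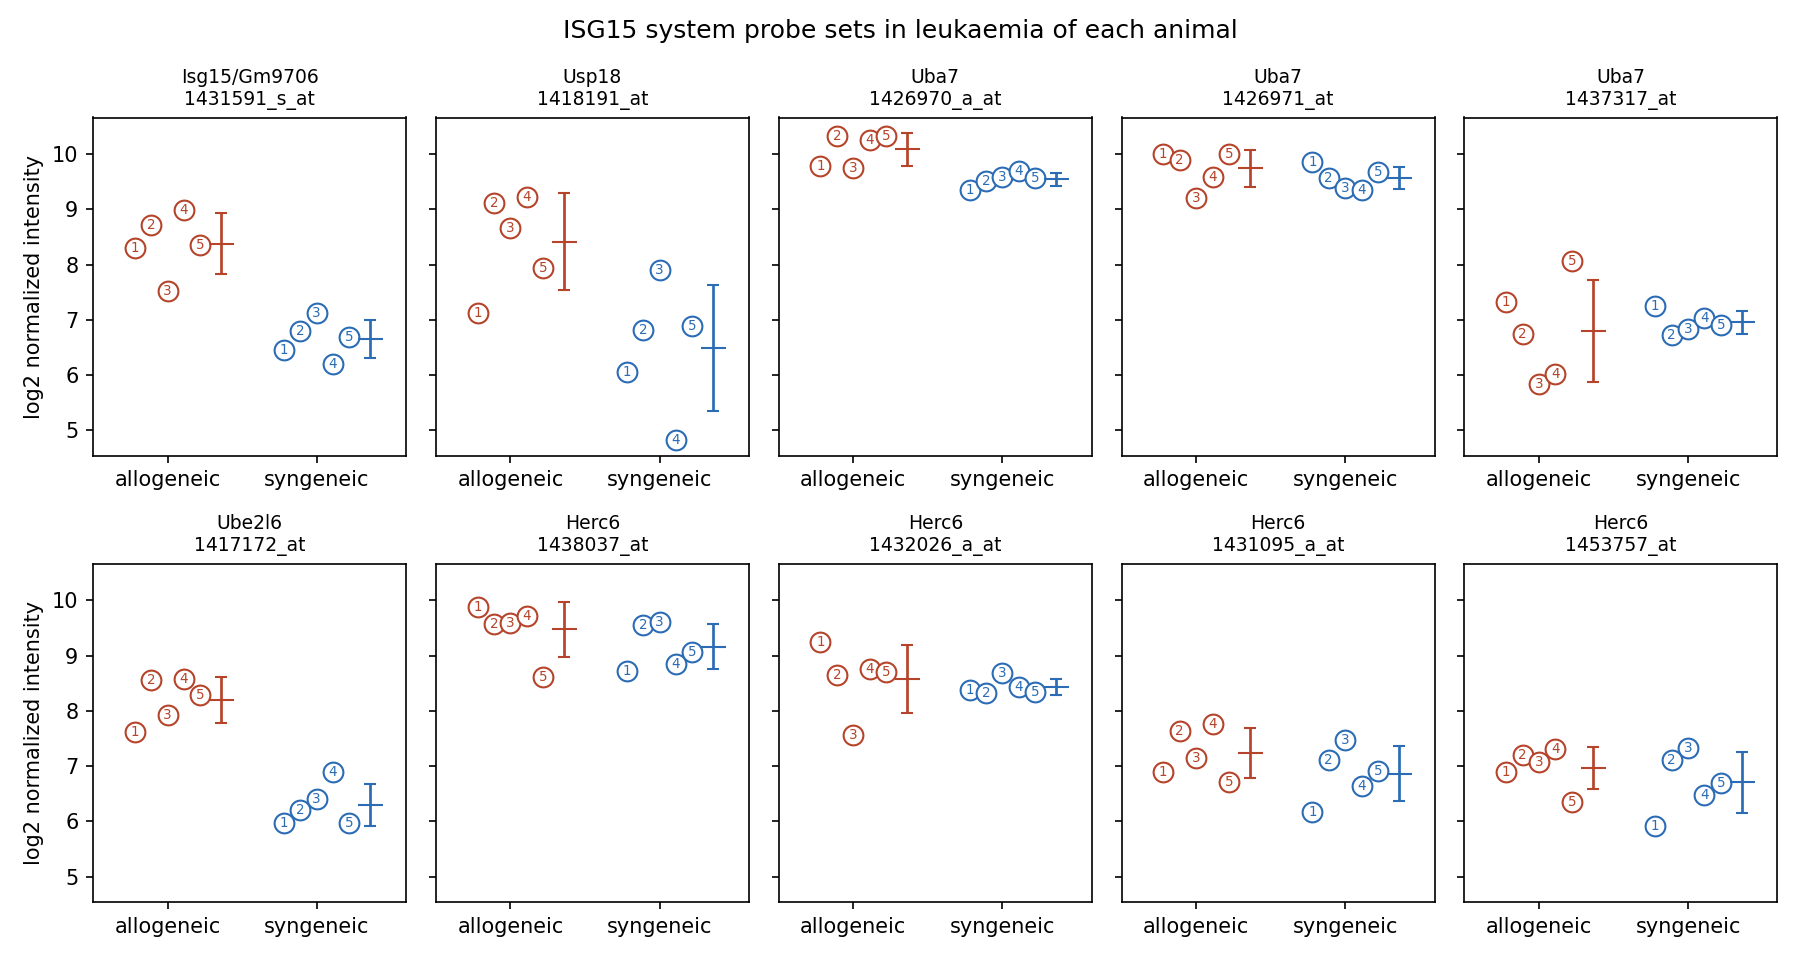
Log2 normalized intensity of each of the 10 probe sets of the ISG15 system (vertical axis) in leukaemia from 5 allogeneic and 5 syngeneic recipients. Numbered circles are animals and bars show the mean with SD. The groups are apart for the Isg15/Gm9706 probe set, Ube2l6 and the first Uba7 probe set and overlap for the other 7.

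The modifier was measured by probe set 1431591_s_at, which is shared between Isg15 (chromosome 4, 156199424 to 156200818, GRCm38.p6) and Gm9706. Its log2 level in allogeneic animals 1 to 5 was 8.30, 8.72, 7.53, 8.98 and 8.36, and in syngeneic animals 1 to 5 it was 6.45, 6.81, 7.12, 6.21 and 6.69. Every allogeneic value was above the highest syngeneic value, with allogeneic animal 3 closest to it. In deposited units the probe set read 197 to 502 in allogeneic and 76.0 to 135 in syngeneic samples. The difference was 1.72 (SE 0.28), a fold of 3.30 with a 95% confidence interval of 2.15 to 5.06 (limma adjusted p = 0.0349). The call did not hold on leaving out most single animals, although the difference changed little. It was kept without allogeneic animal 1 or 3 and lost on leaving out any one of the other 8, with adjusted p-values from 0.0595 without syngeneic animal 3 to 0.117 without syngeneic animal 1, while the difference stayed between 1.57 and 1.94. Without allogeneic animals 1, 3 and 4 together it was 1.91 (adjusted p = 0.0315).

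Uba7, the activating enzyme (chromosome 9, 107975567 to 107984056), had the smallest difference among the genes whose best-detected probe set separated the groups. Probe set 1426970_a_at had levels of 9.78, 10.33, 9.75, 10.26 and 10.32 in allogeneic animals 1 to 5 and 9.35, 9.52, 9.58, 9.69 and 9.56 in syngeneic animals 1 to 5. All allogeneic values were above all syngeneic ones, and allogeneic animals 1 and 3 were only just so. The difference was 0.55 (SE 0.16), or 1.46-fold (95% confidence interval 1.14 to 1.88), and did not pass over all probe sets (adjusted p = 0.154 by limma). Without allogeneic animals 1, 3 and 4 it was 0.79 and passed (adjusted p = 0.0363).

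The 2 remaining Uba7 probe sets did not share this pattern. Probe set 1426971_at averaged 9.74 ± 0.34 in allogeneic and 9.57 ± 0.21 in syngeneic samples (SD, n = 5 each), a difference of 0.17 (adjusted p = 0.685 by limma). Probe set 1437317_at averaged 6.80 ± 0.92 in allogeneic and 6.95 ± 0.20 in syngeneic samples (SD, n = 5 each), a difference of -0.15 (adjusted p = 0.879 by limma). In that probe set allogeneic values ran from 5.84 in animal 3 to 8.07 in animal 5 and bracketed the syngeneic range of 6.73 to 7.26. The groups therefore overlapped in both, and the 3 Uba7 probe sets gave no single direction.

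Ube2l6, the conjugating enzyme that passes ISG15 from UBA7 to the ligase (chromosome 2, 84798828 to 84810003), gave the firmest result of the system. Probe set 1417172_at had levels of 7.62, 8.55, 7.93, 8.59 and 8.29 in allogeneic animals 1 to 5 and 5.98, 6.21, 6.41, 6.90 and 5.98 in syngeneic animals 1 to 5. The lowest allogeneic value, in animal 1, was above the highest syngeneic value, in animal 4. Deposited intensities were 214 to 376 in allogeneic and 61.6 to 127 in syngeneic samples. Ube2l6 rose by 1.90 (SE 0.25), or 3.74-fold with a 95% confidence interval of 2.56 to 5.47 (limma adjusted p = 0.0116), and stood at rank 60 of all probe sets by p. It passed on leaving out any 1 of the 10 animals (highest adjusted p = 0.0467, without syngeneic animal 2) and without allogeneic animals 1, 3 and 4 (2.16, adjusted p = 0.0299).

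Herc6, the ligase (chromosome 6, 57580992 to 57665136), did not pass on any of its 4 probe sets. The brightest, 1438037_at, had levels of 9.88, 9.57, 9.60, 9.72 and 8.61 in allogeneic animals 1 to 5 and 8.73, 9.56, 9.61, 8.84 and 9.07 in syngeneic animals 1 to 5. Allogeneic animal 5 was the lowest of all 10 arrays, and all 5 syngeneic values lay within the allogeneic range. The difference was 0.31 with a 95% confidence interval of -0.30 to 0.93 (limma adjusted p = 0.600), so a fold above 1.90 lies outside the interval. It was -0.077 without allogeneic animals 1, 3 and 4 (adjusted p = 0.920), which is the opposite sign.

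The fainter Herc6 probe sets, 1431095_a_at and 1453757_at, differed by 0.37 and 0.26 (adjusted p = 0.540 and 0.682 by limma). Both were lowest in allogeneic animal 5 among the allogeneic arrays, and both were highest in animal 3 and lowest in animal 1 among the syngeneic ones. Probe set 1432026_a_at differed by 0.15 (adjusted p = 0.814) and was instead lowest in allogeneic animal 3, at 7.57, with the other 4 allogeneic values between 8.66 and 9.24 and the syngeneic values between 8.33 and 8.68. Over the 4 probe sets the upper bounds of the interval lay between 1.69-fold and 2.02-fold.

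Usp18, the ISG15 protease and feedback inhibitor (chromosome 6, 121245906 to 121270917), had a difference as large as those of Ube2l6 and the Isg15/Gm9706 probe set but a wide spread. Probe set 1418191_at had levels of 7.12, 9.11, 8.66, 9.23 and 7.94 in allogeneic animals 1 to 5 and 6.06, 6.81, 7.90, 4.82 and 6.88 in syngeneic animals 1 to 5. The groups overlapped, since allogeneic animal 1 was below syngeneic animal 3, and 4 of 5 allogeneic values were above every syngeneic one. Syngeneic animal 4 was below the background limit of its array (5.32), the only member value that was. The difference was 1.92 (SE 0.58), or 3.78-fold with a 95% confidence interval of 1.54 to 9.32, and it did not pass (limma adjusted p = 0.159). It stayed positive on leaving out any 1 animal, lowest without syngeneic animal 4 and highest, at 2.27, without syngeneic animal 3. The smallest adjusted p among these was 0.0613, without allogeneic animal 1.

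**Figure D2:**
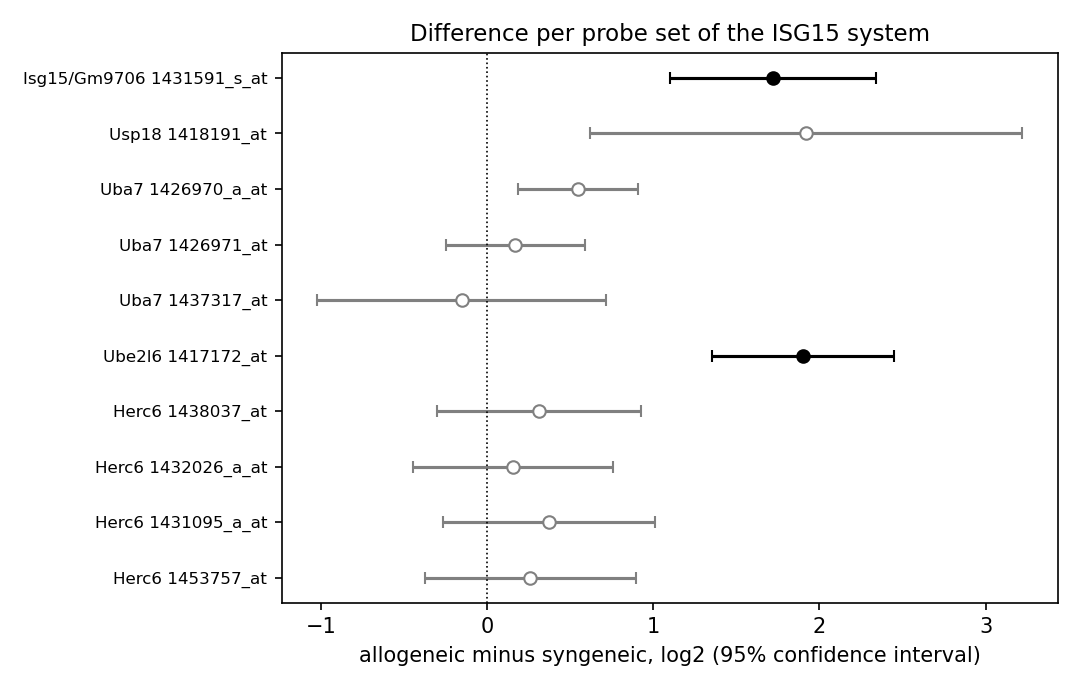
Allogeneic minus syngeneic difference in log2 normalized intensity (horizontal axis) for each of the 10 probe sets, with its 95% confidence interval from limma. Filled points passed at an adjusted p under 0.05, which were Ube2l6 and the Isg15/Gm9706 probe set, and the interval of Usp18 is the widest.

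Single arrays ranked alike for some members and not for others. Among allogeneic samples, animal 4 was highest for the Isg15/Gm9706 probe set, Ube2l6 and Usp18, and animal 2 was next for each. Animal 1 was lowest for Ube2l6 and Usp18, whereas animal 3 was lowest for the Isg15/Gm9706 probe set and for the first Uba7 probe set. Among syngeneic samples, animal 3 was highest and animal 4 lowest for both the Isg15/Gm9706 probe set and Usp18, but animal 4 was highest for Ube2l6.

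Whether members changed unequally was asked with the log2 difference between 2 genes on the same array, using the probe set of highest mean for each and an exact 2-sided permutation test over all assignments of 5 and 5 arrays to groups. The test compares single probe sets, and probe sets of 1 gene can differ, as the 3 of Uba7 did (0.55, 0.17 and -0.15). An unequal change of 2 probe sets therefore need not be an unequal change of 2 transcripts. Of 10 pairs, 4 differed between groups after Benjamini-Hochberg adjustment over the pairs. The Uba7 minus Ube2l6 difference was 1.68 to 2.16 in allogeneic and 2.80 to 3.58 in syngeneic samples, a change of -1.36 (SE 0.16, exact permutation p = 0.00794, adjusted 0.0265), and the groups did not overlap. The group difference of the Isg15/Gm9706 probe set exceeded that of Uba7 by 1.17 (SE 0.24) and that of Herc6 by 1.41 (SE 0.33), both with an exact permutation p of 0.00794, the smallest this design can give (adjusted 0.0265). The difference of Ube2l6 exceeded that of Herc6 by 1.59 (SE 0.41, exact permutation p = 0.0159, adjusted 0.0397).

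The modifier, its carrier enzyme and its protease could not be separated in this way. The Isg15/Gm9706 probe set differed from Ube2l6 by a change of -0.18 (SE 0.32, exact permutation p = 0.556) and from Usp18 by -0.20 (SE 0.53, exact permutation p = 0.722). Usp18 and Ube2l6 differed by 0.018 (SE 0.67, exact permutation p = 0.992), with an SE too wide to show that they moved alike. Usp18 exceeded Uba7 by 1.37 and Herc6 by 1.61, neither of which passed (adjusted exact permutation p = 0.0794 for both). Uba7 and Herc6 differed by 0.23 (SE 0.36, exact permutation p = 0.556). The number of pairs that passed was 2 without syngeneic animal 1, 2 or 5 and 3 to 5 without any other single animal.

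**Figure D3:**
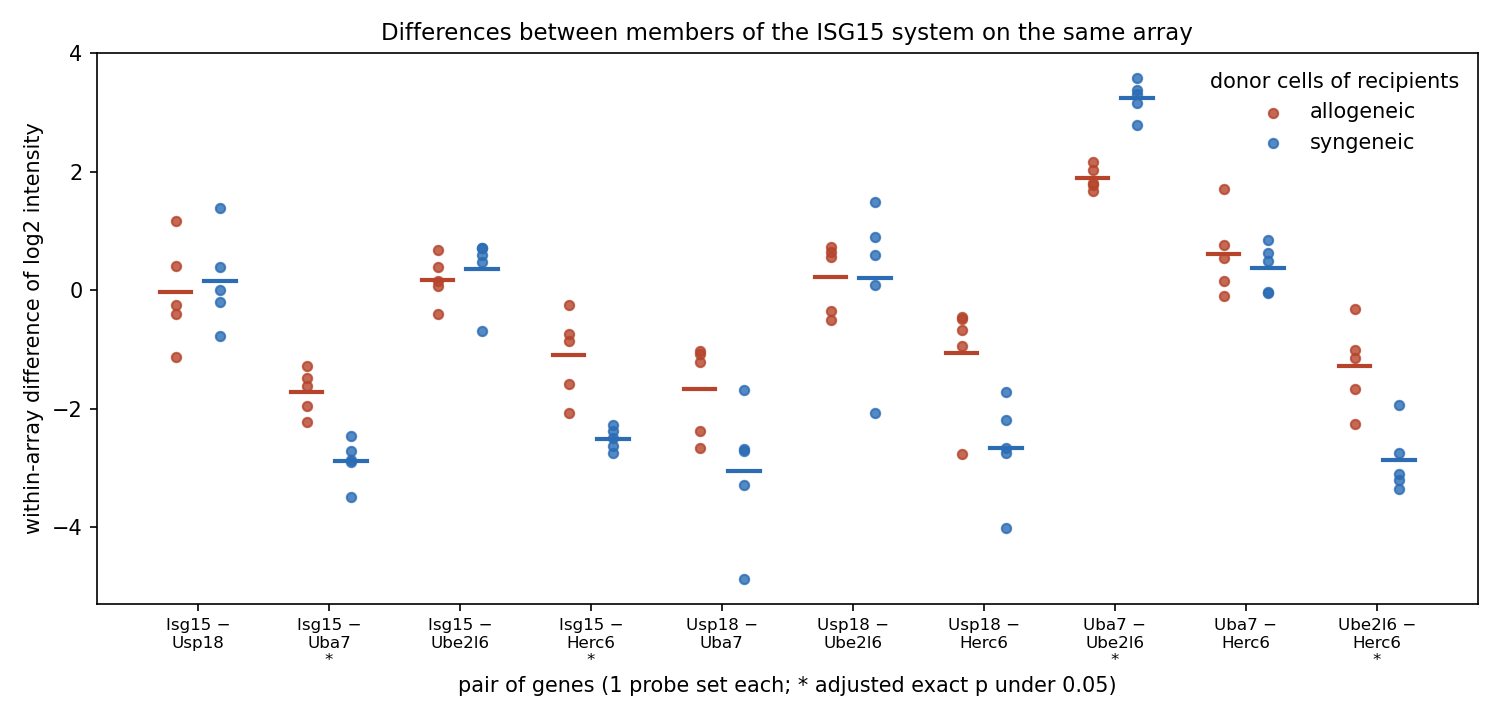
Within-array difference of log2 intensity between members (vertical axis) for all 10 pairs, by group, with 5 points each and a line at the mean. The height of a pair has no meaning, since probe sets differ in brightness, and the gap between allogeneic and syngeneic points is what was tested. The groups do not overlap for Uba7 minus Ube2l6, and for Usp18 minus Ube2l6 they overlap and are widely spread. Isg15 stands for the shared Isg15/Gm9706 probe set.

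Other enzymes linked to ISG15 gave no call. Of 16 such genes 14 were measured, each by its probe set of highest mean, and 0 rose, 0 fell and 14 did not pass, with 3 at an unadjusted p under 0.05 by limma. Over 18194 genes represented in this way, 0.374% were called higher and 0.055% lower, with a median difference of 0.011. The median of the list was -0.072. The ligase gene Arih1, reported as a further ISG15 ligase, had levels of 10.28 and 10.70 in allogeneic and syngeneic samples (difference -0.42, adjusted p = 0.193). Herc4, a relative of Herc6 in the HERC ligase family, had 11.43 and 11.82 (-0.38, adjusted p = 0.166). The groups did not overlap for Arih1 and Herc4, both lower, which was the case for 1.9% of all genes with 1 probe set each. Usp13, a deubiquitinase, had 7.30 and 6.47 (0.83, adjusted p = 0.156), and Usp2, another deubiquitinase, had 4.44 and 5.30, near background (-0.86, adjusted p = 0.334). Trim25, an interferon-inducible ligase also reported to transfer ISG15 and named here for that role after its value was seen, differed by -0.20 (adjusted p = 0.435).

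Interferon receptor signalling, the pathway that induces the members and that USP18 limits, had 1 of 15 measured genes higher, 0 lower and 14 that did not pass, with a median difference of 0.21. The gene that rose was Irf1, an IRF that drives many interferon-gamma targets, with levels of 11.88 ± 0.21 in allogeneic and 10.17 ± 0.20 in syngeneic samples (SD, n = 5 each, adjusted p = 0.00141 by limma). Of all genes with 1 probe set each, groups lay apart in the higher direction for 2.94% and in the lower for 1.9%. Irf7, an IRF of the type I response, differed by 1.39 with no overlap between groups but did not pass (adjusted p = 0.101 by limma). Irf7 was above background on 3 of 5 syngeneic arrays. It passed once the lower 50% of probe sets by mean was left out (adjusted p = 0.0458). Socs3, a cytokine signalling inhibitor, differed by -1.27 with no overlap between groups (adjusted p = 0.0993). Socs3 passed as lower in that setting (adjusted p = 0.0445), with trend and robust variance estimates (adjusted p = 0.0384) and with array weights. The number of genes of this list that passed was 4 without the lower 50% of probe sets, 3 with trend and robust estimates, 3 with array weights and 0 with animal number as a block. It was also higher than in the main fit without allogeneic animals 1, 3 and 4. Ifnar2, the receptor chain that USP18 binds, named for that role after its value was seen, differed by 0.71 (adjusted p = 0.173).

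Among reported ISG15 substrates, 1 of 19 measured genes rose, 0 fell and 18 did not pass, with a median difference of 0.017. The gene that rose was Bst2, which encodes the virus tether tetherin, by 1.37 (adjusted p = 0.0171 by limma), and it is itself interferon-inducible. Its call was lost without syngeneic animal 1, 3 or 5 (adjusted p = 0.0607, 0.0504 and 0.0624). Mx1, Ddx58 and Ifit1, an antiviral GTPase, an RNA sensor and an RNA-binding effector, differed by 0.99, 0.49 and 1.33 without passing (adjusted p = 0.121, 0.209 and 0.261). Secreted ISG15 binds the integrin LFA-1, and 0 of 3 measured genes of that receptor and its partners passed. Its subunit genes Itgal and Itgb2 differed by 0.094 and 0.078 (adjusted p = 0.837 and 0.834), and the adhesion ligand gene Icam1 by 0.25 (adjusted p = 0.509). All 3 had an unadjusted p above 0.05 by limma.

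Other ubiquitin-like systems were measured beside the members. Of 23 genes for ubiquitin, NEDD8, SUMO and further modifiers and their activating enzymes, 14 had a probe set of their own, and 0 passed, with 2 at an unadjusted p under 0.05 by limma and a median difference of 0.036. Ubd, which encodes the interferon-inducible modifier FAT10, had a difference close to that of the Isg15/Gm9706 probe set, with levels of 6.65 ± 0.77 in allogeneic and 4.95 ± 0.82 in syngeneic samples (SD, n = 5 each), but it overlapped between groups and was above background on 2 of 5 syngeneic arrays (difference 1.70, adjusted p = 0.130 by limma). The activating enzyme genes Uba3 (NEDD8) and Uba6 (ubiquitin and FAT10) differed by -0.43 and -0.57 (adjusted p = 0.231 and 0.389), and Urm1, a sulphur-carrying modifier, by 0.36 (adjusted p = 0.372). Of 27 measured deubiquitinases and SUMO or NEDD8 proteases, 0 passed, 5 had an unadjusted p under 0.05 by limma, and the median was -0.15. The difference was positive for 6 of the 27. Senp6 and Senp2, SUMO proteases, differed by -0.56 and -0.31 with no overlap (adjusted p = 0.129 and 0.226). Usp4 and Usp22, named after their values were seen, were also lower with no overlap (adjusted p = 0.266 and 0.306 by limma). Groups lay apart in the lower direction for 1.9% of all genes with 1 probe set each. Senp6 passed as lower with array weights (adjusted p = 0.0429), without allogeneic animal 1 (adjusted p = 0.0263) and without allogeneic animals 1, 3 and 4 (adjusted p = 0.0330). Tnfaip3, an inhibitor of NF-kB signalling, differed by 0.44 and the deubiquitinase gene Usp7 by -0.34 (adjusted p = 0.210 and 0.254).

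Interferon-inducible effectors, the products of the response that also induces the members, had the most calls of the 7 lists. Of 27 measured genes 9 rose, 0 fell and 18 did not pass, with a median difference of 0.98 and 26 of 27 positive. These lists were drawn up with results of these arrays known, so the count is no independent evidence of direction. The 9 were Lgals3bp, Zbp1, Oas3, Rtp4, Ifih1, Oasl1, Bst2, Xaf1 and Oasl2. Between 6 and 10 genes of the list passed on leaving out 1 animal and 1 with animal number as a block. Of the 20 alternatives, Oasl2 lost its call in 10, Xaf1 in 8 and Bst2 in 4. Differences over the 27 genes ran from -0.43 for Samd9l, an antiviral effector named as the lowest after its value was seen, to 3.35 for Oas3, an RNA-activated antiviral enzyme. The differences of all 5 member genes lay within that range. Oas3 was above background on 1 of 5 syngeneic arrays, and its difference was 2.63 with 16 added before log2. Oasl1 and Oasl2 were above background on 3 of 5 syngeneic arrays.

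**Figure D4:**
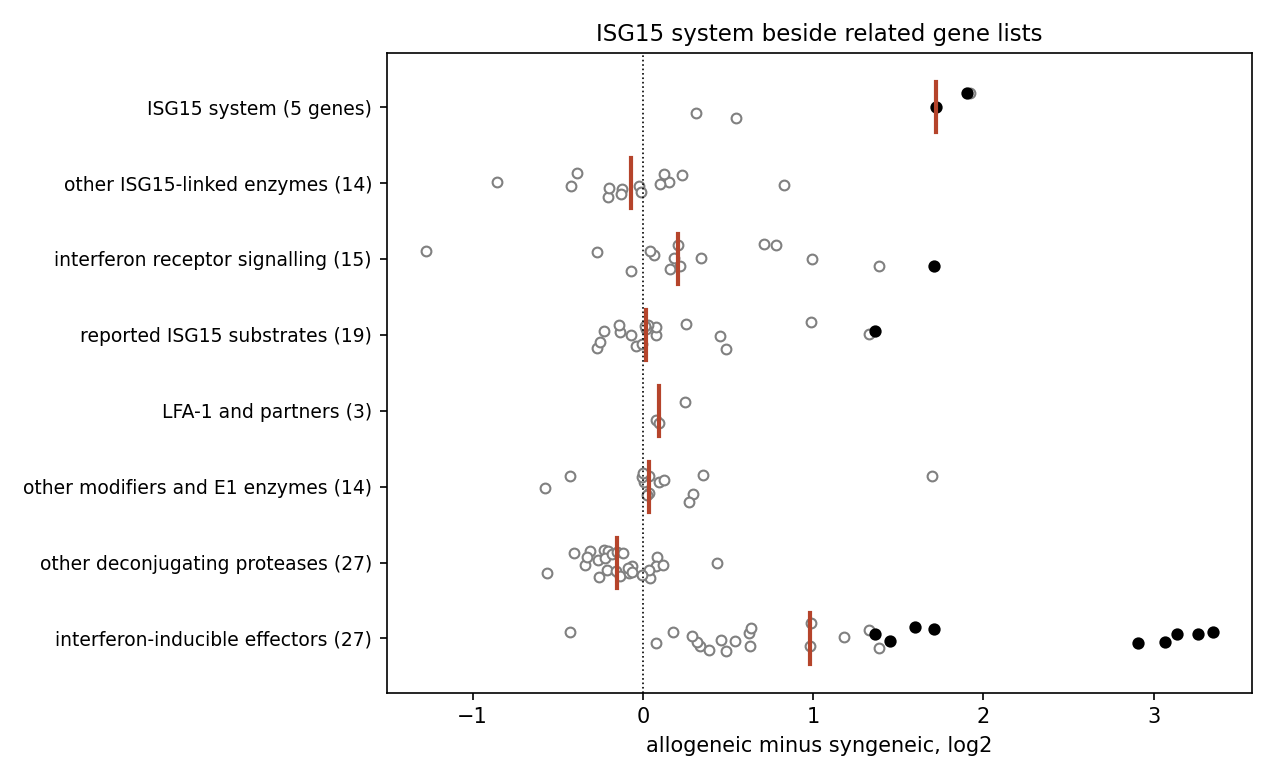
Allogeneic minus syngeneic difference in log2 normalized intensity (horizontal axis) for the 5 genes of the ISG15 system and for 7 related gene lists, with 1 probe set per gene and the number of genes in brackets. Filled points passed at an adjusted p under 0.05 and red bars mark medians. The median of interferon-inducible effectors is 0.98 and those of the other 6 lists lie between -0.15 and 0.21.

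Over the 10 arrays, the 5 genes whose values were most like the Isg15/Gm9706 probe set, among 10157 genes of mean level over the median of all probe sets, were Xaf1, Bst2, Plppr4, Ifi27l2b and Nfasc, with Pearson r of 0.970, 0.964, 0.960, 0.959 and 0.954. Members gave lower values, with r of 0.891 for Ube2l6, 0.872 for Uba7, 0.827 for Usp18 and 0.458 for Herc6. These correlations share the difference between the groups and the same arrays, and they are given as a description only. Xaf1 and Bst2, an interferon-inducible apoptosis regulator and the gene of tetherin, are members of the effector list.

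Signal of other cell types was measured beside these results, because a sort can hold other cells and because in bulk samples more cells of a type and more RNA per cell cannot be told apart. Of 18 measured macrophage and monocyte markers 0 passed and 2 had an unadjusted p under 0.05 by limma, with 9 of 18 positive and 2 (Itgam and Cd14) never above background. Yet their summed linear intensity was 13461 to 15132 in allogeneic and 9975 to 12262 in syngeneic samples, without overlap. The sum is weighted to the brightest of these probe sets, Mpeg1 and Fcgr3, with allogeneic levels of 12.63 and 12.46. They differed by 0.68 and 0.21 (adjusted p = 0.186 and 0.504). The next brightest, Mrc1, had an allogeneic level of 9.41 and differed by -0.098 (adjusted p = 0.817). Summed intensity of the 15 stroma and endothelium markers was 1652 to 2209 in allogeneic and 1238 to 1629 in syngeneic samples, also without overlap. Of these markers 0 were called, 3 were above background on all 10 arrays and 4 were never above it. The brightest, Eng and Pecam1, weigh most in the sum and differed by 0.20 and 0.41 (adjusted p = 0.647 and 0.256). Differences were positive for 14 of the 15, with a median of 0.37, and 3 had an unadjusted p under 0.05 by limma.

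For 9 dendritic cell markers the sum was 2594 to 3985 in allogeneic and 1315 to 1960 in syngeneic samples. The only one of them called was Bst2, which is also an interferon-inducible gene, and without it the sums were 789 to 1401 and 608 to 1106, which overlapped. Of the 8 markers left, 6 had a positive difference, with a median of 0.48. Among the 8, 3 had an unadjusted p under 0.05 by limma and 3 were never above background. Sums of T cell (10 measured, 3 never above background), NK cell (9 and 5), granulocyte (9 and 0) and erythroid (5 and 1) markers overlapped between groups, with 0 called in each. The NK list had 2 genes at an unadjusted p under 0.05 by limma. Gzma, a cytotoxic protease and the brightest of the list, had levels of 9.92 ± 0.50 in allogeneic and 8.86 ± 0.33 in syngeneic samples (SD, n = 5 each), a difference of 1.06 that did not pass over all probe sets. Klrk1, an activating receptor, differed by 1.59 (adjusted p = 0.167) and was above background on 0 of 10 arrays. Of the 9 NK cell markers, 6 had a positive difference. Prf1 and Klrd1, above background on all 10 arrays as Gzma was, differed by -0.20 and -0.30 (adjusted p = 0.506 and 0.745 by limma). Gzma, Klrk1, Prf1 and Klrd1 were named after their values were seen. The part of these cell types in the differences of Ube2l6 and the Isg15/Gm9706 probe set was not tested.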

How the data were processed

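Per the labels, 1 Affymetrix array of NuGEN-amplified RNA was made for each of 10 animals. The authors deposited linear intensities, 1 value for each probe set and array. How they summarised, scaled or filtered them is not stated in the labels or the file header. Deposited intensities ran from 0.74 to 22385, with 361 to 461 values of exactly 1 per array and 10 arrays set the precision.

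After log2 transformation and quantile normalization of all arrays, 45037 probe sets (45101 less 64 controls) were fitted without a filter with limma 3.58.1 (lmFit and eBayes, default settings) in R 4.3.3, with Benjamini-Hochberg adjustment over all of them and calls at an adjusted p under 0.05. Figures were drawn with matplotlib 3.10.9. Symbols come from the platform annotation: 34945 probe sets had 1 symbol, 932 several and 9160 none, and 34741 of those with 1 were matched by gene identifier to the GRCm38.p6 gene table. A gene outside the members stands as its probe set of 1 symbol with the highest mean. Named were all member probe sets, list genes that passed, up to 4 per list with the smallest p, and the 5 genes most correlated with Isg15; exceptions are marked, and a few items are not reported here. Background limits, and the dendritic cell sum without Bst2, were set after the data had been seen.

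Members and lists were chosen with earlier results of these data known. Fits and permutation tests were tested on simulated data. Animal numbers did not pair the groups: correlations of same-numbered deviations were -0.075 to 0.088. Alternatives covered normalization, filters, variance model, array weights, left-out animals and a block for animal number.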

Additional observations from a re-analysis of the deposited data

Results flagged for a closer look

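In groups of 5 animals, 82 groups over 41 named probe sets were examined for a sample far from the rest. There were 11 such samples, 2 of them in Herc6. Chance would give about 1 in 20 if the groups were independent and normally distributed. They share the same 10 arrays, and many of the probe sets were named for a small p. The count of 11 therefore cannot be read against that rate. Allogeneic animal 5 stood below its group on Herc6 probe set 1438037_at, where its log2 level was 8.61 and the others had 9.57 to 9.88, and syngeneic animal 3 stood above its group on 1432026_a_at, at 8.68 against 8.33 to 8.43. Allogeneic animal 5 was also low for Uba6 (9.71 against 11.16 to 11.45) and Arih1 (9.85 against 10.31 to 10.49), both of which act in ubiquitin-like conjugation. Syngeneic animal 3 was high for Rtp4 (8.78 against 6.81 to 7.36), Ddx58 (9.23 against 8.49 to 8.63) and Usp13 (7.01 against 6.23 to 6.43) and low for Usp7 (12.68 against 12.89 to 12.94). Syngeneic animal 4 was low for Ifih1 (5.74 against 6.22 to 6.29) and Icam1 (9.84 against 10.21 to 10.27). Allogeneic animal 3 was low for Zbp1 (10.92 against 11.60 to 11.80).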

How the results depend on the processing

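Ube2l6 differed by 1.71 to 2.16 under 20 alternatives and passed under 19 of them. The exception was the fit with animal number as a replicate block, which gave 1.90 with adjusted p = 0.0980, and in which the Isg15/Gm9706 probe set gave 1.72 with adjusted p = 0.182, so 0 member probe sets were called by limma (4 had an unadjusted p under 0.05), and 0 pairs differed, since 5 pairs cannot reach the threshold. Animal numbers did not pair the samples, and no syngeneic partner of the same number was the best correlated one for any allogeneic animal. The Isg15/Gm9706 difference was 1.57 to 1.94 on leaving out 1 animal. The number of called member probe sets was then 1 to 2, and the number of unequal pairs 2 to 5. Without allogeneic animals 1, 3 and 4, Uba7 passed at 0.79, Herc6 reversed to -0.077 and 0 pairs passed, since 2 against 5 arrays allow few assignments. Uba7 also passed with array weights (0.67, adjusted p = 0.0348). Usp18 passed under none of 20. Values near 0 changed sign. Uba7 probe set 1437317_at gave 0.46 without allogeneic animals 1, 3 and 4, and -0.47 to 0.085 on leaving out 1 animal. Herc6 probe set 1432026_a_at gave -0.0095 to 0.41, Itgb2 -0.0077 to 0.18 and Itgal -0.0031 to 0.17 on leaving out 1 animal, and Itgal was -0.046 with array weights. Calls in the lists of interferon signalling, substrates, proteases and effectors also changed, as given beside them. Over all probe sets, 185 calls became 7 with the block, 2035 without allogeneic animal 1 and 70 without syngeneic animal 5. The cause of these changes was not tested.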
